A study of Homo sapiens with 12 samples.

Results

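The ID family comprises 4 genes, ID1 (ENSG00000125968), ID2 (ENSG00000115738), ID3 (ENSG00000117318) and ID4 (ENSG00000172201), which encode helix-loop-helix inhibitors of transcription. They were taken by their Ensembl gene IDs, and all 4 were present among the 24916 gene IDs measured. Total RNA of SW480 ADH cells, which derive from the SW480 human colon carcinoma line, was hybridised to Affymetrix arrays after 72 h of culture in serum-containing medium. The 12 arrays form 4 groups of 3. One group was mock transfected (Mock). The other groups were transfected with wild-type SPRY2 (WT) or with 1 of 2 mutants, S112A (serine to alanine) and Y55F (tyrosine to phenylalanine). All groups share the cell line, and the labels do not say whether a group was 1 clone, several clones or a mixed population, or whether SPRY2 expression was stable. The medians of the arrays were 7.20 to 7.32 in log2 units, and the number of arrays limits the precision of every value. The sources used here pair no other gene ID with a symbol, so the level of the introduced SPRY2, colon epithelial markers and the remaining genes of the pathway were not analysed here.

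ID proteins carry a helix-loop-helix domain, through which they pair with other factors, but lack the basic region that contacts DNA. By binding E proteins such as TCF3, TCF4 and TCF12 they keep these factors from forming DNA-binding dimers with each other or with tissue-specific partners, which in general favours proliferation over differentiation. ID genes are classical targets of BMP signalling through SMAD proteins, respond to serum and growth factors, and in the intestine are expressed mainly by progenitor cells. SPRY2 encodes Sprouty2, which modulates signalling from receptor tyrosine kinases. The tyrosine altered in Y55F is known, when phosphorylated, as a docking site for the ubiquitin ligase CBL, and the serine altered in S112A is a phosphorylation site linked to the stability of the protein.

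The promoters of ID1 and ID2 are shown because these were the members that changed between groups. Each sequence is the 250 bases before the RefSeq gene start, in GRCh38.p14 and read 5′ to 3′ in the direction of the gene. That of ID1 is chr20:31605039-31605288 and that of ID2 chr2:8681806-8682055, both on the plus strand. Capitals mark matches on either strand to GTCT, the core of the SMAD-binding element, and to CANNTG, the E-box bound by E proteins and their partners.
ID1: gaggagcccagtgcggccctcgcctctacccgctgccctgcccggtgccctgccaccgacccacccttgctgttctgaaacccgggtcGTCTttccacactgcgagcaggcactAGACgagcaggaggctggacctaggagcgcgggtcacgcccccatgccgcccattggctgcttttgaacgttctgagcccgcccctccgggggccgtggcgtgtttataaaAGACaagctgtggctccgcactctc
ID2: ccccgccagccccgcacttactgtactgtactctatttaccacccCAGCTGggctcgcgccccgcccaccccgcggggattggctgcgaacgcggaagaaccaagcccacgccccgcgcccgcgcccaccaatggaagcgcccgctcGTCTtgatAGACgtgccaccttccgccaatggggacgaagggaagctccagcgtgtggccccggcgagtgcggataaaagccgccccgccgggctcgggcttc
The ID1 window held 3 GTCT matches, whose first bases lay 162, 136 and 25 bases before the start, and no E-box. The ID2 window held 2 GTCT matches, at 103 and 95 bases before the start on opposite strands, and 1 E-box at 205 bases. Of the 250-base windows of 35116 promoters in the same table, 77.5% held GTCT and 61.8% held an E-box, so both are common. Other motifs were also searched on both strands. GGCGCC (a GC-rich SMAD element, in 16.4% of promoters) and TGACGTCA (the cyclic AMP response element, 1.65%) matched in none of the 4 members' windows. Nor did CCGGAA (an ETS core, 14.5%). Sequence farther than 250 bases before the start was not searched. GCGGGGGCG, an EGR motif found in 4.72% of promoters, matched once, in ID4. The ID3 window held 2 GTCT matches and no E-box, and that of ID4 held 1 of each.

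ID1 and ID2 moved in opposite directions. ID1 was higher and ID2 lower in every one of the 9 arrays with a SPRY2 construct than in any Mock array, while the Mock and SPRY2 arrays of ID3 and ID4 overlapped. Of all gene IDs, 1.65% lay higher and 1.42% lower in all 9 SPRY2 arrays than in the Mock arrays. Limma's moderated F test over the 4 groups, with Benjamini-Hochberg adjustment over all gene IDs, found ID1 (adjusted p = 0.00126) and ID2 (adjusted p = 0.000119) to differ among groups. ID3 (adjusted p = 0.988) and ID4 (adjusted p = 0.835) did not pass. Thus 2 of the 4 members passed, where 29.3% of all gene IDs did. The group means of ID1 spanned 0.72 log2 units, or 1.64-fold, and those of ID2 0.63, or 1.55-fold, against a median span of 0.17 over all gene IDs.

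**Figure D1:**
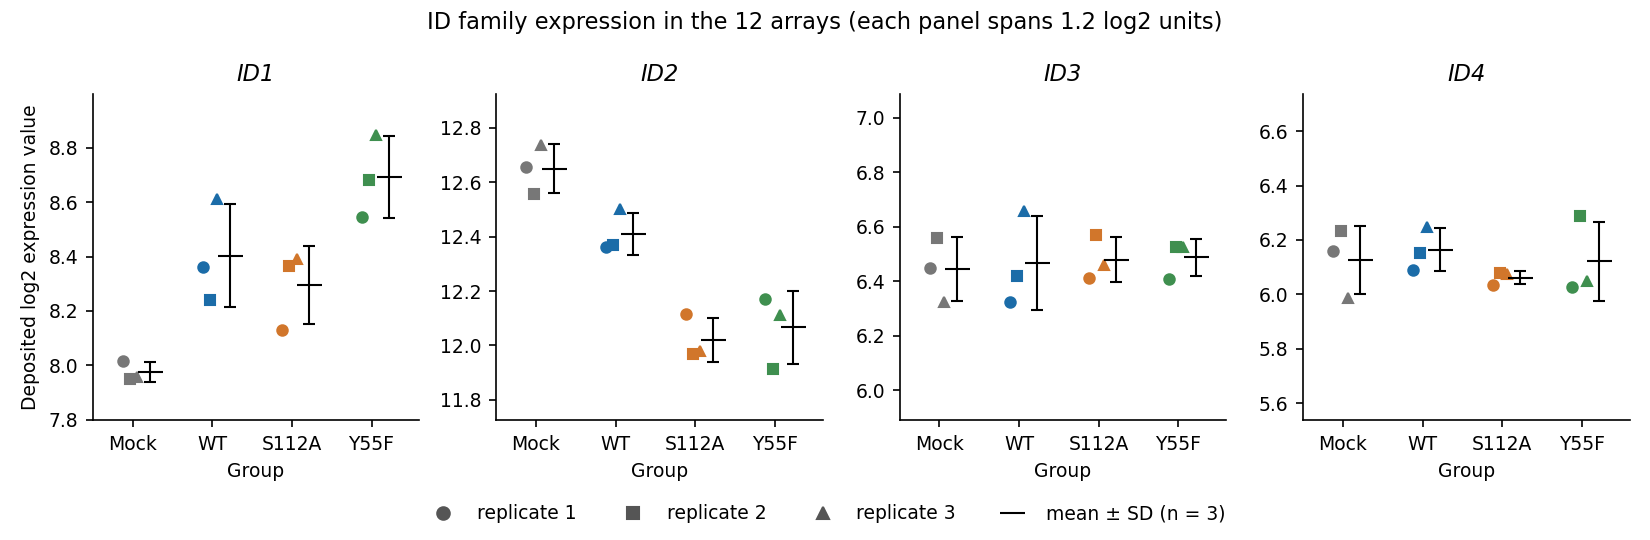
Deposited log2 expression values (vertical axes, each spanning the same range) of the 4 ID genes by group, 1 point per array with its replicate number as the symbol and mean ± SD (n = 3) beside the points. The ID1 points of the SPRY2 groups lie at 8.13 to 8.85, above the Mock points at 7.95 to 8.02, and the ID2 points at 11.92 to 12.50, below the Mock points at 12.56 to 12.74.

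ID1 encodes the founding member of the family, a BMP-responsive inhibitor studied in colon cancer for its part in self-renewal. Its log2 values in the 3 Mock arrays were 8.02, 7.95 and 7.96, with a mean of 7.98 ± 0.037 (SD, n = 3). The WT arrays gave 8.36, 8.24 and 8.61, a mean of 8.40 ± 0.19 (SD, n = 3). The S112A arrays gave 8.13, 8.36 and 8.39, a mean of 8.30 ± 0.14 (SD, n = 3). The Mock arrays were closely grouped, and the WT and S112A arrays overlapped each other. The Y55F arrays gave 8.55, 8.68 and 8.85, a mean of 8.69 ± 0.15 (SD, n = 3), the highest of the 4 groups, with 1 WT array inside their range. Averaged over all arrays, ID1 stood at the 62.1 percentile of gene IDs.

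Against Mock, ID1 rose in Y55F cells by 0.72 ± 0.10 (SE) on the log2 scale, which is 1.64-fold (95% confidence interval 1.41 to 1.92), with adjusted p = 0.000458 in limma. This was the 234th largest rise of that comparison. In WT cells it rose by 0.43 ± 0.10, or 1.35-fold (1.15 to 1.57), with adjusted p = 0.0193 in limma. That call was lost without Mock replicate 2, Mock replicate 3 or WT replicate 3, where the adjusted p in limma was 0.0653, 0.0635 and 0.0818 and the log2 difference 0.42, 0.42 and 0.33. In S112A cells the difference was 0.32 ± 0.10, or 1.25-fold (1.07 to 1.46), and did not pass, with adjusted p = 0.0669 in limma. The S112A arrays did not overlap those of Mock, which held for 26.3% of all gene IDs in this comparison. The difference passed in 9 of 20 other fits, with an adjusted p in limma of 0.000620 to 0.208. The lowest adjusted p came with array weights, where Mock replicate 1 weighed 5.31 and S112A replicate 2 weighed 6.06. The other arrays of these groups weighed 0.47 to 0.70. With these weights 9119 gene IDs passed in this comparison, against 3238 without them. The Mock arrays are shared by these 3 comparisons, so the differences are not independent of each other.

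Between constructs, ID1 was 1.32-fold higher in Y55F than in S112A cells, 0.40 ± 0.10 (SE) apart on the log2 scale, with adjusted p = 0.0175 in limma. This call was lost without S112A replicate 1 (0.31, adjusted p = 0.0734 in limma) or Y55F replicate 3 (0.32, adjusted p = 0.0779 in limma). Y55F and WT cells differed by 0.29 ± 0.10, which did not pass, with adjusted p = 0.0768 in limma, and which passed in 7 of 20 other fits. S112A and WT cells differed by -0.11 ± 0.10, a fold of 0.928 with a 95% interval of 0.793 to 1.09 and adjusted p = 0.583 in limma. In the order Mock, S112A, WT, Y55F, no group thus differed past the threshold from the next one, and the steps that passed were those from Mock to WT, from Mock to Y55F and from S112A to Y55F.

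ID2 encodes an inhibitor known in colon carcinoma as a target of beta-catenin and TCF factors. Its 3 Mock arrays stood at 12.65, 12.56 and 12.74, with a mean of 12.65 ± 0.090 (SD, n = 3). The WT arrays stood at 12.36, 12.37 and 12.50, a mean of 12.41 ± 0.078 (SD, n = 3). These 2 groups did not overlap, but only 0.057 log2 units separated the nearest arrays. The S112A arrays stood at 12.11, 11.97 and 11.98, a mean of 12.02 ± 0.082 (SD, n = 3). The Y55F arrays stood at 12.17, 11.92 and 12.11, a mean of 12.07 ± 0.13 (SD, n = 3). Both mutant groups lay below every WT and Mock array and overlapped each other. ID2 stood high in every array, at the 96.7 to 99.0 percentile of gene IDs, and its value there depends on its probes as well as on its RNA.

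Against Mock, ID2 fell in S112A cells by 0.63 ± 0.077 (SE) on the log2 scale, to 0.646 of the Mock level (95% confidence interval 0.575 to 0.726), with adjusted p = 0.000172 in limma. It fell in Y55F cells by 0.58 ± 0.077, to 0.667 of the Mock level (0.594 to 0.750), with adjusted p = 0.000244 in limma. These were the 325th largest fall of the S112A and the 523rd of the Y55F comparison. In WT cells the log2 difference was -0.24 ± 0.077, or 0.847 of the Mock level (0.754 to 0.952), which did not pass, with adjusted p = 0.0839 in limma. With the replicate number as a block, fitted over all groups at once, this difference passed, with adjusted p = 0.0365 in limma. The deviations of same-numbered arrays correlated above 0.1 throughout for WT and Mock and for Y55F and S112A, but not in the other comparisons. The block fit was thus not a paired test of WT against Mock, and the labels state no pairing. Over 20 other fits the adjusted p in limma ran from 0.00601, with array weights, to 0.267, and 6 of them passed.

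The mutants differed from the wild type in ID2. It was lower in S112A than in WT cells by a log2 difference of -0.39 ± 0.077 (SE), or 0.763 of the WT level, with adjusted p = 0.00271 in limma. It was lower in Y55F than in WT cells by -0.34 ± 0.077, or 0.788 of the WT level, with adjusted p = 0.00712 in limma. These calls, and those of both mutants against Mock, passed in all 20 other fits that set no fold requirement. Between Y55F and S112A cells the log2 difference of ID2 was 0.046 ± 0.077, a fold of 1.03 with a 95% interval of 0.919 to 1.16 and adjusted p = 0.804 in limma. From the highest to the lowest the order was Mock, WT, Y55F, S112A. Between neighbours in this order the step from WT to Y55F passed, and the step from Mock to WT passed only in the 6 other fits counted above.

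ID3, a close relative that shares targets with ID1, gave no detectable difference. Its Mock arrays stood at 6.45, 6.56 and 6.32, with a mean of 6.44 ± 0.12 (SD, n = 3). The WT arrays stood at 6.32, 6.42 and 6.66, a mean of 6.47 ± 0.17 (SD, n = 3). The S112A arrays stood at 6.41, 6.57 and 6.46, a mean of 6.48 ± 0.081 (SD, n = 3). The 4 groups overlapped, since the Y55F arrays stood at 6.41, 6.53 and 6.53, a mean of 6.49 ± 0.068 (SD, n = 3). Their means spanned 0.044 log2 units, less than the spread within any group. The 95% confidence intervals of the fold against Mock were 0.888 to 1.16 for WT, 0.897 to 1.17 for S112A and 0.902 to 1.18 for Y55F, which do not contain the 1.64-fold seen for ID1 in Y55F cells. The adjusted p over the 6 comparisons was at least 0.858 in limma.

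ID4, the member known to be silenced by promoter methylation in many colorectal cancers, did not pass in any comparison. Its Mock arrays stood at 6.16, 6.23 and 5.99, with a mean of 6.13 ± 0.13 (SD, n = 3). The WT arrays stood at 6.09, 6.15 and 6.25, a mean of 6.16 ± 0.079 (SD, n = 3). The S112A arrays stood at 6.03, 6.08 and 6.07, a mean of 6.06 ± 0.024 (SD, n = 3). The S112A arrays lay just below the WT arrays, with a gap of 0.014 and adjusted p = 0.477 in limma, and every other pair of groups overlapped. The Y55F arrays stood at 6.03, 6.29 and 6.05, a mean of 6.12 ± 0.15 (SD, n = 3). Intervals of the fold against Mock were 0.909 to 1.16 for WT, 0.846 to 1.08 for S112A and 0.882 to 1.13 for Y55F. ID3 and ID4 stood at the 40.5 and 35.7 percentiles of gene IDs. Their signal over background was not analysed, and RMA compresses differences of weak signals.

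**Figure D2:**
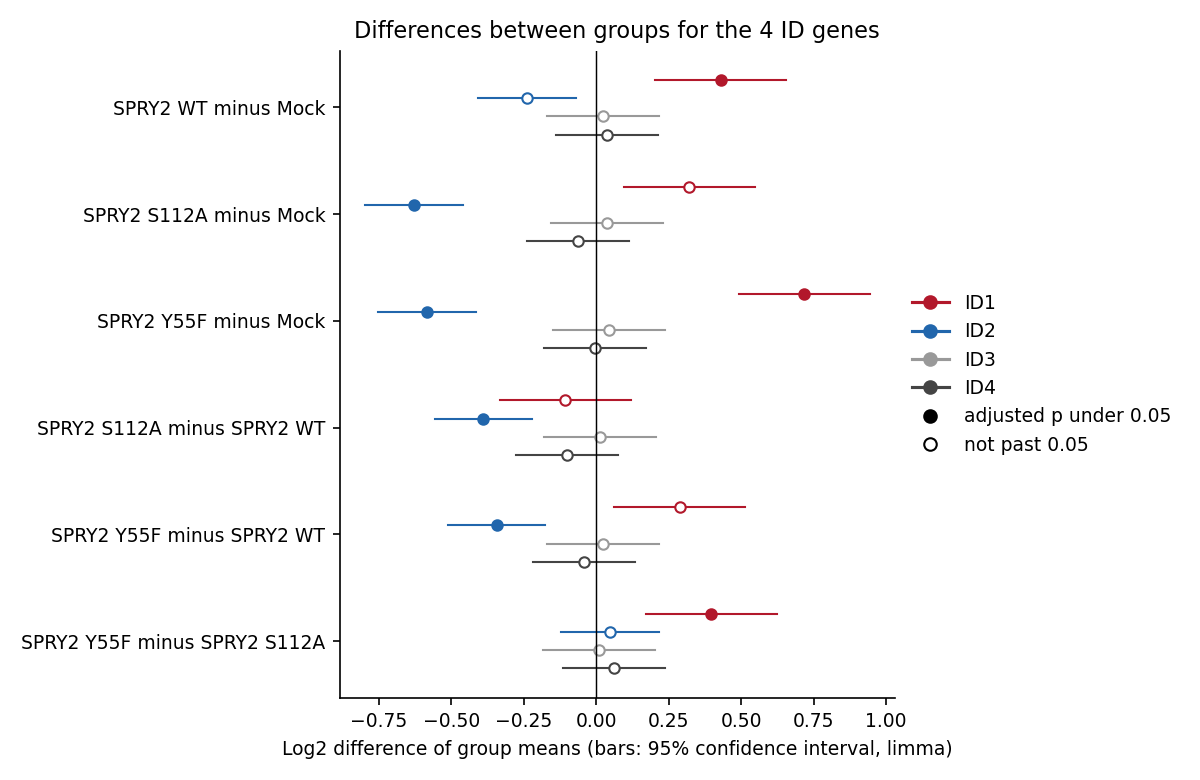
Log2 differences of group means (horizontal axis) for the 4 ID genes in the 6 comparisons, with 95% confidence intervals from limma; filled points passed an adjusted p of 0.05. Filled ID1 points lie to the right of 0 and filled ID2 points to the left, and all ID3 and ID4 intervals include 0.

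Counted by comparison, 1 of the 4 members passed in WT against Mock (ID1, higher), where 9.44% of all gene IDs passed. In S112A against Mock 1 passed (ID2, lower), against 13% of all gene IDs. In Y55F against Mock 2 passed (ID1 higher, ID2 lower), against 16.1%. S112A against WT had 1 (ID2, lower) beside 21%, Y55F against WT had 1 (ID2, lower) beside 19.2%, and Y55F against S112A had 1 (ID1, higher) beside 18.9%. Read against these shares, 1 or 2 of 4 members is not a result about the family as a whole. The groups of 2 members did not overlap in each comparison with Mock, ID1 higher and ID2 lower. Among all gene IDs, the arrays of the construct and of Mock did not overlap for 24.5% in WT, 26.3% in S112A and 29.1% in Y55F cells. Between constructs, 2 members did not overlap in S112A against WT (ID2 and ID4, 33.6% of all gene IDs), 1 in Y55F against WT (ID2, 31.5%) and 1 in Y55F against S112A (ID1, 29.4%). The median log2 difference from Mock over the 4 members was 0.030 in WT, -0.015 in S112A and 0.020 in Y55F cells, against 0.015, -0.010 and 0.00045 over all gene IDs. With ID1 above and ID2 below the other members in each comparison, these medians are the midpoints of the ID3 and ID4 differences.

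Whether members differed in their response was tested on the difference of their log2 values within each array, which removes any shift of a whole array. For each of the 6 pairs of members, an F statistic over the 4 groups was compared with all 369600 assignments of the arrays to groups, an exact permutation test whose smallest possible p is 6.49e-05. After Benjamini-Hochberg adjustment over the 6 pairs, 5 passed, and each of these holds ID1 or ID2. They share members, so they are not 5 separate results. Pairs of other gene IDs were not tested, and 29.3% of all gene IDs passed limma's F test over the 4 groups. The difference of ID1 and ID2 was -4.67 ± 0.092 in Mock, -4.01 ± 0.12 in WT, -3.72 ± 0.22 in S112A and -3.37 ± 0.22 in Y55F arrays (log2, SD, n = 3), with exact adjusted p = 0.00156. Only its change between groups is interpretable, because levels of different genes on an array depend on their probes. The 3 Mock arrays lay apart from all others, and the difference rose by 1.30 log2 units from Mock to Y55F cells when the group means are compared.

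ID1 also differed in pattern from ID3 (exact permutation test, adjusted p = 0.000779) and from ID4 (adjusted p = 0.00195 in the same exact test). ID2 differed from ID3 (adjusted p = 0.00419, exact) and from ID4 (adjusted p = 0.00623, exact). ID3 and ID4 were the pair that did not pass, with exact p = 0.372. Their within-array difference was 0.32 ± 0.024 in Mock, 0.30 ± 0.095 in WT, 0.42 ± 0.065 in S112A and 0.37 ± 0.12 in Y55F arrays (log2, SD, n = 3).

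**Figure D3:**
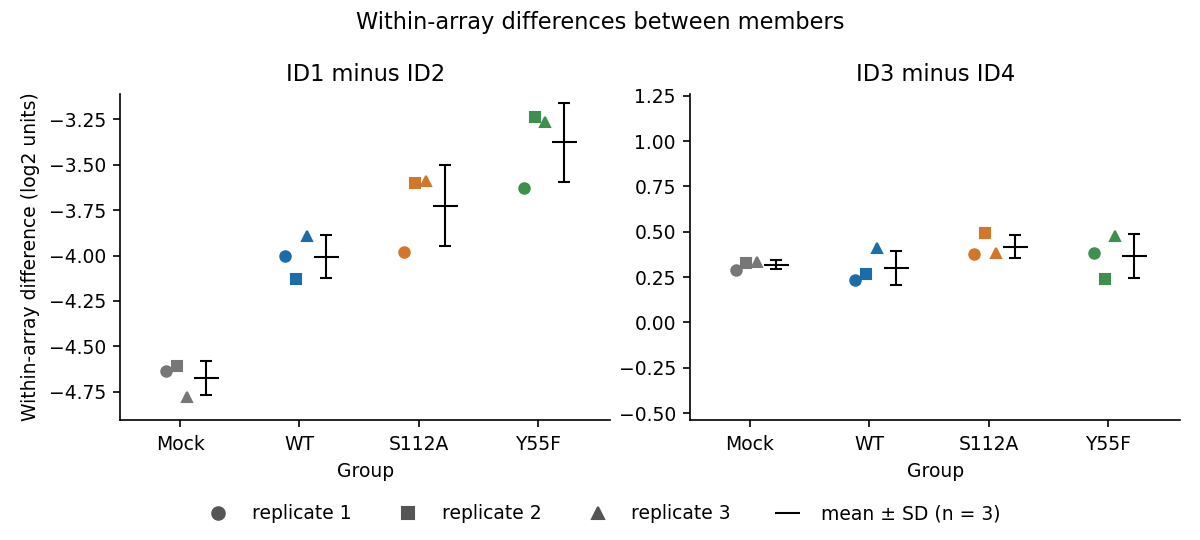
Within-array difference of log2 values (vertical axes) between ID1 and ID2 and between ID3 and ID4, by group, 1 point per array and mean ± SD (n = 3). The ID1 minus ID2 points move from -4.67 on average in Mock to -3.37 in Y55F arrays, while the ID3 minus ID4 group means stay between 0.30 and 0.42.

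In S112A and in Y55F cells alike, the array of replicate 1 gave both the lowest ID1 and the highest ID2 value of its group. Within each of these groups it so lay nearest to Mock for both genes.

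**Figure D4:**
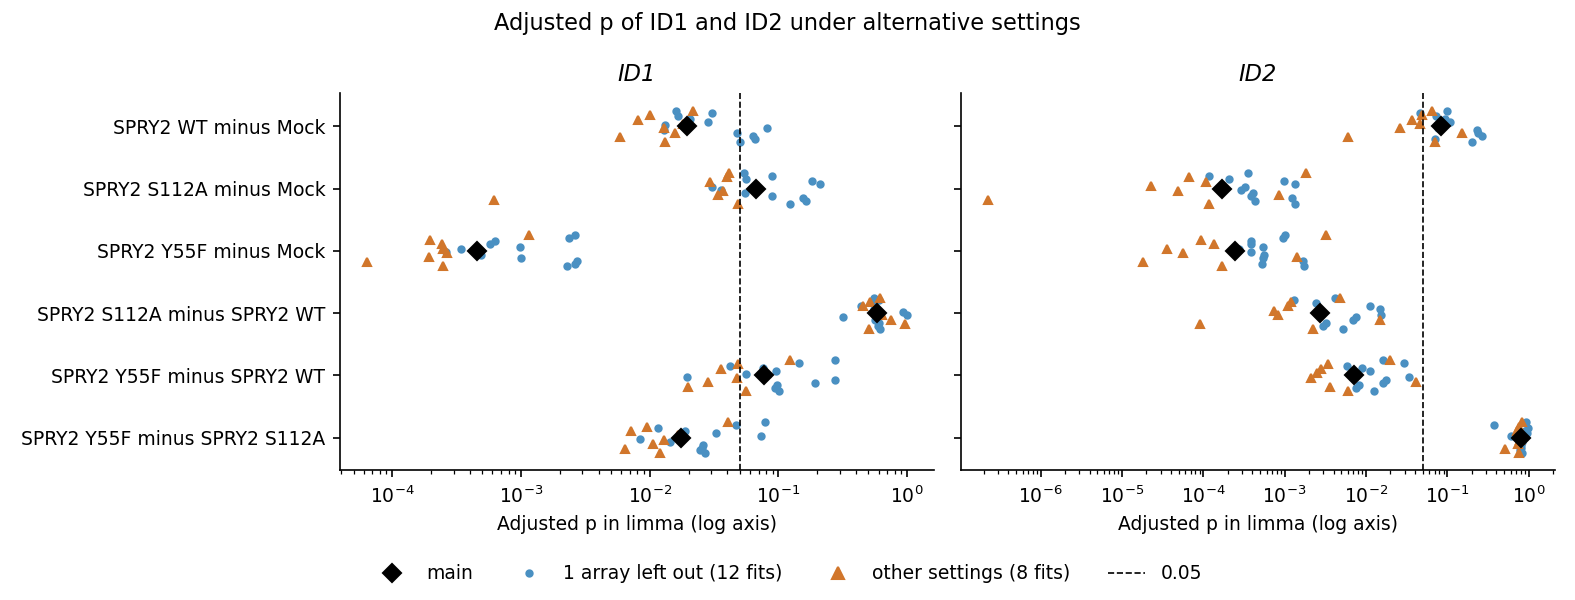
Adjusted p in limma (log axis) of ID1 and ID2 in the 6 comparisons: diamonds are the reported values, dots the 12 fits that each left out 1 array, triangles the 8 other settings, and the dashed line is 0.05. All ID1 symbols of Y55F minus Mock and all ID2 symbols of both mutants minus Mock or minus WT lie to the left of the line. ID2 in WT minus Mock straddles it. So does ID1 in S112A minus Mock, WT minus Mock, Y55F minus WT and Y55F minus S112A.

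Among 871 other gene IDs whose group means spanned at least 1 log2 unit, the one most like ID1 over the 12 arrays was ENSG00000117289, with a Pearson r of 0.96. It stood at 11.03 ± 0.19 in Mock, 12.02 ± 0.26 in WT, 11.63 ± 0.28 in S112A and 12.60 ± 0.090 in Y55F cells (log2, SD, n = 3), the same order of groups as ID1 over a wider range. The one most like ID2 was ENSG00000008513, with an r of 0.95. It stood at 9.10 ± 0.065 in Mock, 8.80 ± 0.015 in WT, 8.09 ± 0.013 in S112A and 8.28 ± 0.069 in Y55F cells (log2, SD, n = 3), again in the order of the ID2 group means. Both coefficients are the highest of many, over arrays that fall into 4 groups, and serve as a description.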

How the data were processed

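The authors deposited log2 expression values per Ensembl gene ID for 12 arrays. Per the submitters' processing notes, RMA and affy were used; version, array model, build and annotation release are not given in the sources used here. As usually run, RMA subtracts background, equalises the arrays' quantiles and combines the probes of a gene, so values are relative within an array. That the values are log2 was read from their range, 3.91 to 14.12. Groups and replicate numbers came from the sample titles. The labels state 3 independent experiments in triplicate without tying numbers to them, so the p-values reflect only how far these arrays vary, which may be technical. No pair of arrays was identical.

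All 24916 gene IDs were fitted without a filter in limma 3.58.1 (R 4.3.3), with 1 mean per group over all 12 arrays, 8 residual degrees of freedom, eBayes, and Benjamini-Hochberg adjustment over all gene IDs within each of 6 comparisons at 0.05. The procedure was run on simulated data with planted changes. Recovery of calls was required there only for changes larger than any seen in the 4 members. How often smaller changes were recovered is not reported here. The 4 members, lists and tests were chosen with earlier results of these data known. Members were always named; the most similar gene ID was named for the 2 members with the widest span of group means. Lists of E proteins, BMP pathway genes, markers and other regulators were not run, since the RefSeq gene table holds 0 Ensembl IDs. Promoters came from RefSeq (GRCh38.p14), with all 4 members matched by symbol. Permutations were run in Python 3.11.15 with numpy 2.4.6.

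The deviations of same-numbered arrays from the means of their groups correlated at 0.14, 0.46 and 0.36 for WT and Mock and at 0.61, 0.12 and 0.40 for Y55F and S112A. All exceed 0.1, the minimum set here. In the other 4 comparisons at least 1 correlation of same-numbered arrays lay below 0.1. Correlations between arrays of different numbers were not computed, and the labels state no pairing. These values therefore do not settle whether the numbers pair samples. Alternatives left out low values or 1 array, fitted only 2 groups, or changed scaling, weights, variance model, fold requirement or block.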

Additional observations from a re-analysis of the deposited data

How the results depend on the processing

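Under the alternatives 830 values were computed, of which 737 changed neither sign nor call and, for counts, no more than 1.5 times. The F test kept 2 members and the pair test kept 5 pairs under every alternative run. Calls that moved were those of ID1 in S112A against Mock, Y55F against WT, WT against Mock and Y55F against S112A, and of ID2 in WT against Mock, besides calls that a fold requirement removed. For WT against Mock, 2 members passed with array weights, after quantile normalizing again, with trend and robust eBayes, and with the replicate block as a fixed term or, at a correlation of 0.118, as a random one. For S112A against Mock, 2 passed without the gene IDs of lowest mean, which tests fewer IDs, with array weights, after median centring, after quantile normalizing again, with either block, and with only the 2 groups fitted. For Y55F against WT, 2 passed with array weights, after median centring, after quantile normalizing again and with either block. Array weights leaned on Mock replicate 1 and S112A replicate 2, with weights of 5.31 and 6.06. Both blocks were fitted over all groups at once, also for WT against Mock. In S112A against Mock and Y55F against WT at least 1 correlation of same-numbered arrays lay below 0.1. Requiring 1.5-fold can only lower a count. It left 0 members in WT against Mock, S112A against WT, Y55F against WT and Y55F against S112A. In Y55F against Mock it left 1, losing ID2, whose fall of 1.499-fold was just short. Why calls moved under the other alternatives, the filter included, was not tested. Fits without 1 array gave 0 to 2 members for WT against Mock, 1 to 2 for S112A against Mock, 1 to 2 for Y55F against WT and 0 to 1 for Y55F against S112A.

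The signs that turned belonged to differences that did not pass. With array weights ID3 turned to -0.016 in WT against Mock and -0.052 in Y55F against S112A. ID4 in Y55F against Mock turned to 0.040 after median centring and 0.020 after quantile normalizing again, and in Y55F against WT to 0.0087 and 0.0019. Without 1 array, ID3 ranged from -0.074 to 0.094 in WT against Mock, -0.025 to 0.093 in S112A against Mock, -0.016 to 0.10 in Y55F against Mock, -0.058 to 0.11 in S112A against WT, -0.049 to 0.12 in Y55F against WT and -0.026 to 0.054 in Y55F against S112A. ID4 ranged from -0.032 to 0.091 in WT against Mock, -0.089 to 0.048 in Y55F against Mock, -0.13 to 0.0049 in Y55F against WT and -0.024 to 0.11 in Y55F against S112A, and ID2 from -0.0066 to 0.12 in Y55F against S112A.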
